A study of Mus musculus with 27 samples.

Results

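The genes described here encode the proteins of the cytosolic ribosome. They were chosen by name: every row whose symbol was Rpl or Rps followed by digits and at most 1 of the letters a, l and x, together with Rplp0, Rplp1, Rplp2 and Rpsa, and without the S6 kinases (Rps6k). The rule found 81 genes in each of the 3 count tables, 49 of the large subunit and 32 of the small subunit, among 46078 identifiers in each of 2 tables and 22906 symbols in the third. It did not match some other genes of ribosomal proteins, among them Fau, Rps3a1, Rpl22l1 and Rpl36al, which were followed as a separate list with the ribosome-bound protein Rack1. Of the 81 genes, 77 passed the filter on low counts in the table of empty-vector and TAL1 mice and in that of ProT cells, and 78 passed it in the table of AKT(E17K) mice.

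Ribosomal proteins and ribosomal RNA form the particle that translates mRNA, and a growing cell spends much of its transcription on them. Their mRNAs begin with a run of pyrimidines, the terminal oligopyrimidine (TOP) tract, through which mTORC1, a kinase complex downstream of AKT, and the protein LARP1 set how much of them is translated. Some members are also known outside the ribosome: Rpl5 and Rpl11 bind MDM2 and so stabilise p53, and RPL5, RPL10, RPL11 and RPL22 are mutated or deleted in human T cell leukaemia.

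The study measured RNA in mouse models of T cell leukaemia, as 27 libraries in 9 groups of 3. The thymus samples are from transplanted C57BL/6 mice whose bone marrow came with an empty vector, with TAL1, with AKT(E17K), or with both AKT(E17K) and TAL1, as the groups are labelled. TAL1 is a transcription factor switched on in many T cell leukaemias, and AKT(E17K) is an activated form of the kinase AKT1. ProT cells, a mouse cell line, carried TAL1 that the labels describe as induced through CreER and LoxP, and were taken at 0, 6, 12, 18 and 24 h of treatment with 4-hydroxytamoxifen. No ProT cells kept without the drug to the later times were analysed here, so drug, time and induction cannot be told apart. The labels give no age of the mice, no vector or promoter and no share of donor cells in the thymus. Whether libraries of 1 time are separate ProT cultures is not stated, and the p-values there rest on a spread that may be technical.

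RefSeq promoter windows (GRCm38.p6, 250 bases before to 50 after an annotated start) were found for 60 of the 81 genes. The 6 stretches below run from 100 bases before to 20 after the start, from the first window listed for each gene. They are shown because these genes had the largest changes past the threshold in ProT cells at 24 h, Rpl28, Rpl4 and Rps2 being higher than at 0 h and Rps27l, Rpl34 and Rps24 lower. Capitals mark runs of at least 8 pyrimidines that reach within 30 bases of the start on either side. A TOP tract begins at the start of the mRNA, so a marked run need not be one. The runs of Rpl4, Rps27l and Rpl34 end before the annotated start. Both the genes printed and this rule for a run were chosen after the values and sequences were seen. The stretches lie at chr7:4792865-4792984 (plus strand) for Rpl28, chr9:64173287-64173406 (plus strand) for Rpl4, chr17:24719963-24720082 (plus strand) for Rps2, chr9:66945986-66946105 (plus strand) for Rps27l, chr3:130730379-130730498 (minus strand) for Rpl34 and chr14:24490578-24490697 (plus strand) for Rps24.
Rpl28: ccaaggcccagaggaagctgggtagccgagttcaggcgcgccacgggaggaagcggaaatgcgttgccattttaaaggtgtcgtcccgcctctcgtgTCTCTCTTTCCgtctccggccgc
Rpl4: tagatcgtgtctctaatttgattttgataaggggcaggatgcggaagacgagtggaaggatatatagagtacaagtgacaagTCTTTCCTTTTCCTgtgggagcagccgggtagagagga
Rps2: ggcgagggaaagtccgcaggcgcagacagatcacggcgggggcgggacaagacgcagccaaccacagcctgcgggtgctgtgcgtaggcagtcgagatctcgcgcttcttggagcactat
Rps27l: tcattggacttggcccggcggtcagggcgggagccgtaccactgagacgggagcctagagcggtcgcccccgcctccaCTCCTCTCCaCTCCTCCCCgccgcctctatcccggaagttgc
Rpl34: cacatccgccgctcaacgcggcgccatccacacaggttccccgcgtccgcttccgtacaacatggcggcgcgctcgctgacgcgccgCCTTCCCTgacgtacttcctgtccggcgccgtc
Rps24: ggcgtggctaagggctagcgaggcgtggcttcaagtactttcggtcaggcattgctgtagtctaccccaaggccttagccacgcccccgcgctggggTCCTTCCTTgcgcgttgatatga

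Such a pyrimidine run was present in 43 of the 60 genes with a window (71.7%) and in 30.5% of the 27025 genes with a window of this length, a gene with several windows being counted once if any held it. Among the 6 genes shown it stood in Rpl28 and Rpl4, which were higher at 24 h, and in Rps27l, Rpl34 and Rps24, which were lower. In Rps2 it lay past the stretch printed. On either strand, the ETS core CCGGAAG was in 25 of 60 (41.7%) against 9.93% of all genes, and the SP1 type GGGCGG in 36 (60%) against 38.2%. CTCTTTC, of the TCT initiator type and overlapping the pyrimidine run, was in 17 (28.3%) against 9.28%. The E-box of MYC, CACGTG, was in 6 (10%) against 8.09%, and TATAAA in 6 (10%) against 15.7%. CAGATG, an E-box of the TAL1 type, was in 4 of 60 (Rpl37a, Rps13, Rps15a and Rps4x), or 6.67%, against 19.2% of all genes. These are matches of letters in a window, not measured binding.

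Depth was 3893990 to 5915285 counts in genes for empty-vector mice and 7155918 to 11302098 for mice labelled TAL1. It was 2073752 to 3661056 for AKT(E17K) mice, 2230143 to 2792084 for those labelled AKT(E17K) with TAL1, and 2660641 to 6599146 for ProT libraries. The spread between replicates (biological coefficient of variation) was 21.95, 34.95 and 11.6% in the 3 tables, in the order empty vector with TAL1, AKT(E17K) and ProT. Counts of the mouse gene Tal1 did not follow the labels: it was at 0 counts in all 6 mice labelled with TAL1, at 7 counts in AKT(E17K) mouse m121, and in ProT cells at 2601, 2690 and 2965 per 1e6 counts in genes at 0 h and 2155, 2169 and 2004 at 24 h, so directions below refer to labels. Whether these counts would include a TAL1 transgene of another species is not given in the sources used here, so an uncounted transgene and a wrong label cannot be told apart. All 12 T cell markers had counts in each group of mice, while Cd4, Cd8a and Cd8b1 were at 0 in ProT cells at 0 h and 24 h. ProT library 1 of 6 h stood apart, with mitochondrially encoded genes at 10.9% of counts against 14.95 and 16.01% in the other 6 h libraries, and counts of calls are given with and without it.

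The share of counts taken by the 81 genes together overlapped between mice with and without TAL1 in the labels. Of the counts in nuclear genes, they held 5.29, 5.28 and 5.18% in the 3 empty-vector mice and 4.98, 5.30 and 5.47% in those labelled TAL1. In AKT(E17K) mice m121, m122 and m124 the share was 18.3, 19.0 and 13.9%. With TAL1 added in the label it was 14.1% (m116), 12.1% (m117) and 16.7% (m119), so these groups overlapped. ProT cells at 0 h gave 9.57, 10.14 and 10.04%. The later times gave 8.78, 10.10 and 10.17% (6 h), 8.94, 12.01 and 10.42% (12 h), 9.77, 10.16 and 10.29% (18 h) and 9.09, 9.10 and 10.46% (24 h). On this denominator each later time overlapped 0 h. The overlap depended on the denominator: without rRNA rows, an alternative chosen after seeing the data, the 0 h libraries held 11.86, 12.70 and 11.85%, those of 18 h 10.83, 11.52 and 11.75% and those of 24 h 10.40, 10.22 and 11.68%. Both later times then lay below 0 h, as they did over symbols found once in all tables, at 15.09, 16.19 and 14.94% (0 h), 13.41, 14.43 and 14.76% (18 h) and 12.80, 12.55 and 14.60% (24 h). All 6 mice of the AKT(E17K) table lay above all 6 of the other thymus table, but AKT(E17K) and the table cannot be told apart. In bulk RNA, fewer cells of a type and less RNA per cell cannot be told apart either.

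**Figure D1:**
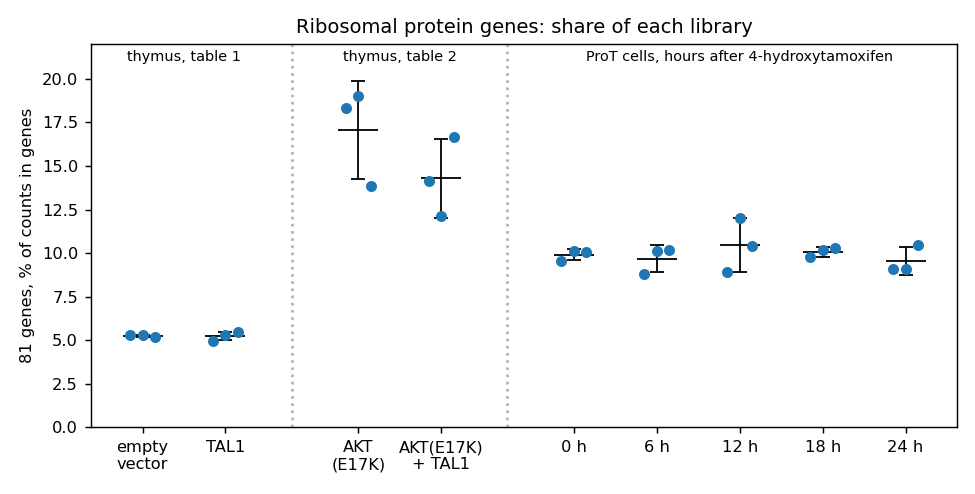
Share of counts in nuclear genes held by the 81 ribosomal protein genes, in percent, for each of 27 libraries; points are libraries and bars the mean and SD of 3. Mice of the empty-vector and TAL1 table sit at 4.98 to 5.47% and those of the AKT(E17K) table at 12.1 to 19.0%, while on this denominator each later ProT time overlaps 0 h.

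These genes have many near-identical processed pseudogenes, and reads aligned more than once are not in the counts, so levels of single members are uncertain. The median share of 50-base windows of a member's mRNA found in no other annotated transcript was 44.5%. It was under 20% for 19 genes, lowest at Rps27 (1.35%), Rpl35 (4.91%) and Rpl5 (6.16%), and 100% for Rpl3l and Rpl39l, among others. Rpl7a shared windows with 120 annotated pseudogenes, Rpl21 and Rpl29 with 81 each, and Rps2 with 71. Exons of 37 of the 81 genes overlapped another annotated gene, for example Snora70 in Rpl10, and whether the counting used strand is not given in the sources used here.

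Levels per kilobase of exon differed widely between members. On the scale of mean CPM (counts per 1e6 counts, scaled by TMM factors) per kb, the median member was at 231 in the empty-vector and TAL1 table, 906 in the AKT(E17K) table and 523 in ProT cells. Rplp1, of the P stalk that recruits elongation factors, was among the 5 highest in each table, at 1399, 12825 and 4891, as was Rps29, a zinc-binding protein of the small subunit, at 1053, 6321 and 2330. Rps21 was highest in the empty-vector and TAL1 table (1697) and came after Rplp1 in ProT cells (2878). Rpl15 was among the 5 lowest each time, at 17.6, 118 and 115. Rps6, the target of S6 kinase, was at 20.4 in the empty-vector and TAL1 table, and Rpl21 was lowest in ProT cells at 94.4. Across members, this level had a Spearman rho of 0.40, 0.23 and 0.37 with the share of unique windows and of −0.40, −0.27 and −0.48 with coding length. These are descriptions across genes that share libraries.

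**Figure D2:**
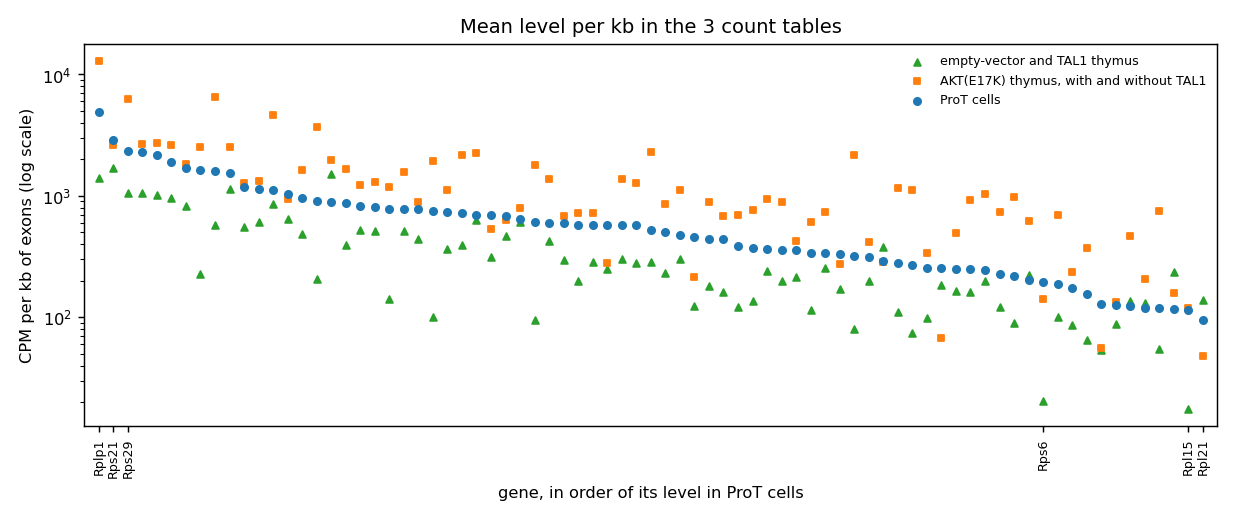
Mean CPM per kb of exon (log axis) of each member in the 3 tables, 1 marker shape a table, in order of the level in ProT cells. Rplp1 lies at or near the top of each and Rpl15 near the bottom; levels between tables are side by side only.

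Of the paralogues used in particular tissues, Rpl10l, known from testis, had 0 counts in every library of all tables, where 3 counts over a table would be 0.0744, 0.180 and 0.0393 CPM. Rpl39l had 40, 0 and 2 counts in all in the empty-vector, AKT(E17K) and ProT tables, and the Rps4l pseudogene 57, 3 and 1, of which 46 were in TAL1 mouse m318. Rpl3l, a muscle paralogue of Rpl3, passed the filter on low counts in the AKT(E17K) table and in the fit of the 12 mice, not in the other tables. In the AKT(E17K) table it was at 6.4, 2.6 and 42.9 CPM in AKT(E17K) mice and 0, 2.1 and 10.3 CPM with TAL1 in the label, the value in m124 being the highest.

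The comparison of mice labelled TAL1 with empty-vector mice asks which genes TAL1 alters in the thymus. No ribosomal protein gene passed an adjusted p of 0.05 by edgeR's quasi-likelihood test with Benjamini-Hochberg adjustment over all genes, 0 of 77, against 5.04% of the 12357 genes tested (2.16% higher, 2.88% lower). By unadjusted p, 5 of 77 members and 2174 of 12357 genes were under 0.05. The median log2 fold change was 0.03 over members, with a range of −0.24 to 0.44, and −0.00 over all genes. The 95% interval lay within ±0.5 for 73 of 77 members. Groups of libraries did not overlap for 7 members that were higher and 3 that were lower, against 11.7 and 11.5% of all genes.

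The member nearest to the threshold was Rps27l, the paralogue of Rps27 that p53 induces. It was at 78.8, 93.6 and 84.4 CPM in empty-vector mice and 125.7, 119.2 and 103.6 CPM in mice labelled TAL1, so every TAL1 library lay above every empty-vector library. Its log2 fold change was 0.44 ± 0.12 (SE, n = 3 each; edgeR adjusted p = 0.0582), and over the alternatives run the adjusted p ranged from 0.0257 to 0.198, with 0.0313 by DESeq2. Its partner Rps27 was at 501, 635 and 589 CPM against 502, 434 and 528 (log2 fold change −0.24 ± 0.11, edgeR adjusted p = 0.271). Those groups overlapped. Rps14, deleted in the 5q syndrome, was at 2658, 2479 and 2415 CPM against 2768, 2805 and 3161 (0.21 ± 0.08, edgeR adjusted p = 0.154). Rps26, mutated in Diamond-Blackfan anaemia, had a log2 fold change of 0.18 ± 0.08 (edgeR adjusted p = 0.259).

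Members with roles in leukaemia and growth control gave small differences. Rpl5 was at 628, 705 and 618 CPM in empty-vector mice and 616, 593 and 643 CPM with TAL1, and its edgeR interval ran from −0.26 to 0.11. Rpl11 was at 605, 595 and 564 against 599, 627 and 636 CPM. Its interval ran from −0.09 to 0.25. Rpl22 had an interval of −0.11 to 0.29 and Rpl10 one of −0.06 to 0.40. Rps6 was low and variable, at 21.5, 37.8 and 42.1 against 33.3, 21.7 and 37.4 CPM, so its interval was wide (−0.70 to 0.46). Beside these values, markers of dividing cells summed to 2051 to 2112 CPM in empty-vector mice and 3206 to 3827 with TAL1, and T cell markers to 12262 to 14682 and 15605 to 17317; their part in these results was not tested.

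In the AKT(E17K) table the comparison asks what TAL1 adds to AKT(E17K). Again no member passed the threshold in edgeR, 0 of 78, against 0% of the 9782 genes tested. By unadjusted p, 6 of 78 members and 709 of 9782 genes were under 0.05, and DESeq2 called 2 members, Rpl19 (adjusted p = 0.0186) and Rps12 (adjusted p = 0.0395). The median over members was −0.31 and over all genes −0.01, with 73 of 78 members below zero. Leaving out 1 mouse at a time, that median ran from −0.46 to −0.17. The 95% interval lay within ±0.5 for 0 members and within ±1 for 43 of 78. Groups did not overlap for 0 members that were higher and 5 that were lower, against 6.18 and 5.72% of all genes. Erythroid markers ranged from 64.6 to 519 CPM in AKT(E17K) mice and from 51.6 to 272 with TAL1, and myeloid markers from 72.3 to 792 and from 70.8 to 343. B cell markers summed to 13.4 to 23.2 CPM in AKT(E17K) mice and 0.448 to 7.88 with TAL1, and those of thymic epithelium to 4.37 to 27.8 and 0 to 3.14, both without overlap. With TAL1, Pax5 of the B cell list and Cldn3, Foxn1, Krt5 and Psmb11 of the epithelial list were at 0. The part of these cells in the results was not tested.

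The largest differences among members with counts in every library were those of Rpl19 and Rps12. Rpl19, which bridges the subunits, was at 2244, 1230 and 1673 CPM in m121, m122 and m124 and at 424, 1026 and 505 CPM in m116, m117 and m119, so the groups did not overlap (log2 fold change −1.40 ± 0.38, edgeR adjusted p = 0.502). Rps12, a small-subunit protein, was at 584, 587 and 211 against 193, 126 and 212 CPM, where m124 lay with the TAL1 mice (−1.38 ± 0.39, edgeR adjusted p = 0.527). Rpl35a, mutated in Diamond-Blackfan anaemia, was at 1099, 866 and 709 against 542, 521 and 612 CPM (−0.67 ± 0.24, edgeR adjusted p = 0.655). Rpl5 was at 2468, 3805 and 2252 against 2524, 1949 and 3133 CPM, and Rps6 at 275, 412 and 81.8 against 269, 104 and 192 CPM. Both overlapped.

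The difference between those TAL1 effects, with against without AKT(E17K), was tested as an interaction over the 12 mice. All mice with AKT(E17K) were in 1 count table and all others in another, so AKT(E17K) and the table cannot be told apart in this contrast. The fit shared its spread over both tables (biological coefficient of variation 29.9%). None of the 78 members passed the threshold in edgeR, against 0.164% of 10947 genes, and 7 of them and 1189 of all genes were under 0.05 by unadjusted p. The median was −0.27 over members and −0.01 over all genes. Rps12 had −1.51 (edgeR adjusted p = 0.226), Rpl19 −1.39 (edgeR adjusted p = 0.247) and Rpl8 −0.96 (edgeR adjusted p = 0.288). Calls appeared when 1 mouse was left out: 3 without AKT(E17K) mouse m124, 1 without m117 and 1 without m119. For those fits the share of all genes called is not given here. DESeq2 called 1. Without m119 the members' median was −0.45.

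ProT cells showed no called change of these genes at 6 h. In edgeR, 0 of 77 members passed the threshold, against 0% of 13610 genes, and 1 was under 0.05 by unadjusted p (Rpl15, log2 fold change −0.32), as were 734 of all genes. The median was −0.13 over members and 0.00 over all genes, with 67 of 77 below zero. Without library 1 of 6 h it was −0.04, with 47 below zero. Groups did not overlap for 0 members that were higher and 4 that were lower, against 4.75 and 4.64% of all genes.

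At 12 h, 6 of 77 members were higher than at 0 h in edgeR and 0 lower, against 12% of all genes called (6.33% higher, 5.69% lower). They included Rpl4 (log2 fold change 0.49 ± 0.12, edgeR adjusted p = 0.0101). Rpl21, Rps2, Rpl3 and Rps4x had log2 fold changes of 0.35 to 0.44 and edgeR adjusted p from 0.0135 to 0.0362. The median over all members was −0.02. Groups did not overlap for 11 members that were higher and 1 that was lower, against 14.8 and 14.8% of all genes. The count rested on few libraries: it was 0 without library 1 of 0 h, 1 without library 2 of 0 h, 3 without library 3 of 0 h or without library 2 or 3 of 12 h, and 10 without library 1 of 6 h. With library sizes alone as scaling it was 18. The share of all genes called under these alternatives is not given here.

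At 18 h, 1 of 77 members passed the threshold in edgeR, Rpl4 (0.41 ± 0.12, edgeR adjusted p = 0.0350), against 8.82% of all genes (4.89% higher, 3.92% lower). Rps2 (0.35, edgeR adjusted p = 0.0653) and Rpl21 (0.33, edgeR adjusted p = 0.0718) came next. Groups did not overlap for 17 members that were higher and 19 that were lower, against 16.3 and 16% of all genes. The count was 0 without library 1 or 2 of 0 h or without library 1 or 2 of 18 h. It was 3 without library 1 of 12 h, 2 without library 2 or 3 of 12 h, and 8 without library 1 of 6 h. For these fits the share of all genes called is not given here, so they do not compare members with other genes.

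At 24 h, 16 of 77 members passed the threshold in edgeR, 6 higher and 10 lower, against 18.7% of all genes (9.43% higher, 9.3% lower). The 16 called were 20.8% of members, near the share of all genes. With library sizes alone as scaling, which moved the median of all genes from −0.01 to 0.17, 14 members were higher and 3 lower. The median over members was −0.16 with TMM scaling, −0.04 for the large and −0.22 for the small subunit, and 0.03 with library sizes alone. Groups did not overlap for 13 members that were higher and 25 that were lower, against 20.4 and 20.1% of all genes. The count was 0 without library 1 of 0 h, 3 without library 2 of 0 h, 1 without library 1 of 24 h and 5 without library 2 of 24 h. Without library 1 of 6 h it was 27, 8 higher and 19 lower, and without library 3 of 24 h 1 was higher and 14 lower. Library 1 of 6 h is in neither group compared, but shares the filter, scaling and spread of the fit. The share of all genes called without these libraries is not given here. Against 0 h, markers of dividing cells summed to 1345 to 1405 CPM, with 684 to 750 at 0 h, and rRNA rows held 9.39 to 11.3% of counts, with 13.2 to 17.3% at 0 h. Mitochondrially encoded genes took between 9.71 and 10.1% of counts at 24 h, below the 13.5 to 15.4% of untreated libraries. The part of these in the results was not tested.

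The members that were higher at 24 h were 5 of the large subunit and Rps2 of the small one. Rpl4, which lines the exit tunnel, was at 994, 951 and 1172 CPM before treatment. After 6 h it was at 1260.5, 1032 and 1159 CPM, after 12 h at 1378, 1591 and 1403, after 18 h at 1512, 1382 and 1262 and after 24 h at 1314, 1343 and 1587. Every library from 12 h on lay above all 3 of 0 h (24 h log2 fold change 0.44, edgeR adjusted p = 0.0131). Rps2, near the mRNA entry of the small subunit, was at 381, 359 and 425 CPM before treatment. After 6 h it was at 437, 374 and 325 CPM, after 12 h at 457, 510.5 and 603, after 18 h at 524, 464 and 502 and after 24 h at 541, 526 and 506. It too lay above 0 h in all 9 of those libraries (0.43, edgeR adjusted p = 0.0139). Rpl28, of the large subunit, went from 315.4, 387 and 442 CPM at 0 h to 539, 492 and 544 at 24 h, without overlap (0.46 ± 0.14, edgeR adjusted p = 0.0266). Rpl3 and Rpl21 had 0.37 each, at edgeR adjusted p of 0.0254 and 0.0266. Of the 6, 5 were also called at 12 h, not Rpl28, with the same 0 h libraries as controls in both.

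The largest called falls at 24 h were in Rps27l, Rpl34 and Rps24. Rps27l was at 609, 493 and 410 CPM before treatment. After 6 h it was at 182, 490.5 and 439 CPM, after 12 h at 245, 422 and 398, after 18 h at 319.2, 349 and 375 and after 24 h at 268, 276 and 329. All of its 18 and 24 h libraries lay below 0 h, and library 1 of 6 h was lowest (24 h log2 fold change −0.79 ± 0.22, edgeR adjusted p = 0.0137). Rpl34, of the large subunit, was at 2247, 2110 and 1748 CPM before treatment. After 6 h it was at 951, 2262 and 2140 CPM, after 12 h at 1149, 1688 and 1305, after 18 h at 1306, 1565 and 1515 and after 24 h at 1054, 1112 and 1421. It lay below 0 h in every library from 12 h on (−0.77 ± 0.20, edgeR adjusted p = 0.00934). Rps24, mutated in Diamond-Blackfan anaemia, went from 4732, 4562 and 3870 CPM at 0 h to 2314, 2418 and 3230 at 24 h, without overlap (−0.73 ± 0.20, edgeR adjusted p = 0.0138). Rpl35, Rpl17, Rps21, Rpl32, Rps27, Rpl9 and Rpl27 were lower by 0.39 to 0.54 on the log2 scale, with edgeR adjusted p from 0.0186 to 0.0494. All 10 also had negative log2 fold changes at 6, 12 and 18 h, against the same 0 h libraries. Of all 77 members, 67, 41 and 47 had negative values at those times. DESeq2 did not call Rps27l, Rpl17 or Rpl35 at 24 h.

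**Figure D3:**
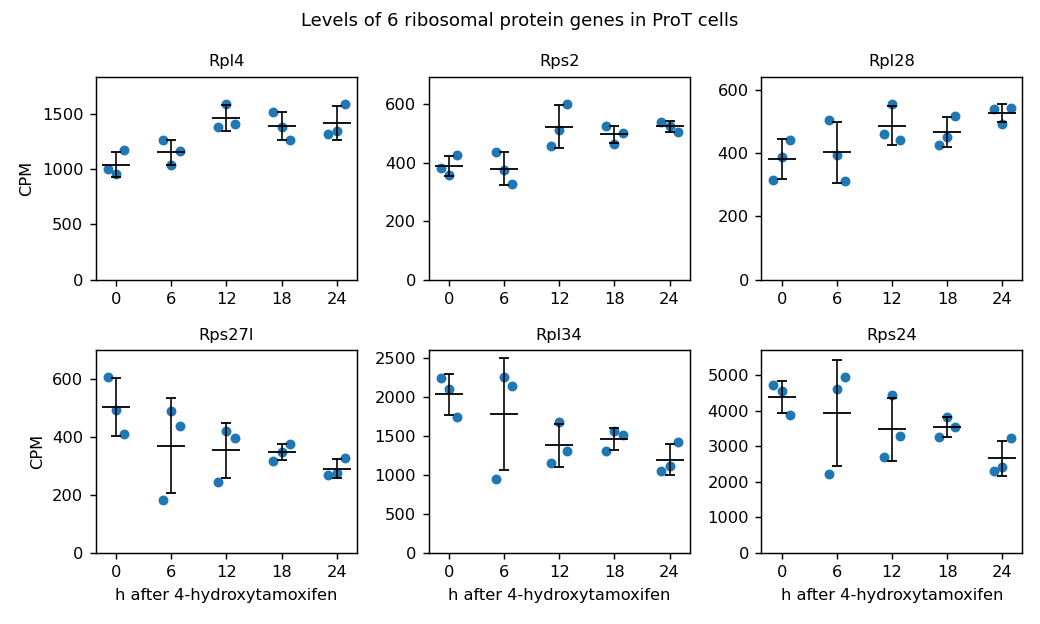
CPM of Rpl4, Rps2, Rpl28, Rps27l, Rpl34 and Rps24 in each ProT library by hours of treatment; points are libraries (1 to 3 from left to right) and bars the mean and SD of 3. Rpl4 and Rps2 lie above 0 h from 12 h on, Rpl34 lies below it, and library 1 of 6 h is the lowest of its time for Rps27l, Rpl34 and Rps24.

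Members with known roles were mostly not called at 24 h. The P stalk proteins Rplp0 (0.11, edgeR adjusted p = 0.524), Rplp1 (−0.01, adjusted p = 0.957) and Rplp2 (0.07, adjusted p = 0.702) had values near zero. So had the 5S RNP proteins Rpl5 (0.05, edgeR adjusted p = 0.844) and Rpl11 (0.08, adjusted p = 0.659), and Rpl10 (0.03, adjusted p = 0.853), which completes the large subunit. Rpl22 was at −0.25 (edgeR adjusted p = 0.176), Rps27a, made as a ubiquitin fusion, at −0.23 (adjusted p = 0.284) and Rps6 at −0.19 (adjusted p = 0.298). The intervals of Rpl5 (−0.23 to 0.33), Rpl11 (−0.15 to 0.31) and Rpl10 (−0.18 to 0.25) leave room for small changes either way.

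Between 6 and 12 h, 4 members were higher in edgeR and 0 lower, against 10.9% of all genes (5.54% higher, 5.31% lower): Rpl30, Rps2, Rpl21 and Rpl3, with log2 fold changes of 0.36 to 0.48. That fit took the libraries as unpaired, and the fit with a replicate block is given further below. Rpl30 was at 297, 369 and 299 CPM at 6 h and 296, 583 and 464 CPM at 12 h, so its groups overlapped. Those of Rps2, Rpl21 and Rpl3 did not. Among all members, groups did not overlap for 14 that were higher and 0 that were lower, against 11.7 and 12.1% of all genes. Without library 1 of 6 h 11 were called, 7 higher and 4 lower, and without library 1 of 12 h 13. The count was 1 without library 2 of 6 h or without library 2 or 3 of 12 h, and 0 without library 3 of 6 h. It was 2 without library 2 or 3 of 18 h or library 1 or 2 of 24 h, and 0 when only those times were fitted. Over all 5 times together, edgeR called 6 members, against 18% of all genes: Rps2, Rpl4, Rpl21, Rpl3, Rpl34 and Rps4x. Without library 1 of 0 h 1 was called, without library 2 of 0 h 2, without library 3 of 6 h 3, without library 1 of 12 h 14 and without library 1 of 6 h 24. For the alternatives in this paragraph the share of all genes called is not given here, so they do not compare members with other genes.

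**Figure D4:**
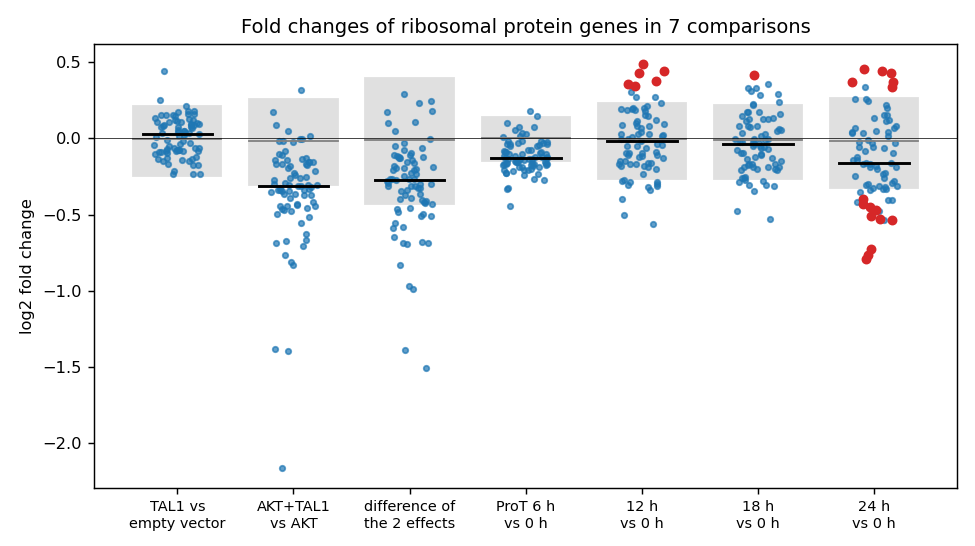
Log2 fold change of each member in each comparison; points are members, red where they passed the edgeR threshold, black bars their median, and grey boxes and bars the quartiles and median of all genes. The mouse comparisons have no red point, and at 24 h 6 are above and 10 below zero.

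Within the ProT cells, direction went with the length of the protein. Across 77 members, Spearman's rho of the log2 fold change with coding length was 0.26 at 6 h, 0.49 at 12 h, 0.55 at 18 h and 0.52 at 24 h, against 0.12, −0.07, −0.04 and −0.05 over the other genes. At 24 h it was 0.47 without the 3 members over 900 bases. The times share their 0 h libraries, and genes share libraries, so these values carry no test. The median log2 fold change at 24 h was −0.36 in the 10 members with up to 300 coding bases, −0.20 in the 27 from 300 to 450, −0.16 in the 19 from 450 to 600, 0.04 in the 18 from 600 to 900 and 0.37 in the 3 longest. Other genes of those lengths had −0.13, 0.03, 0.09, 0.08 and 0.05. By library, the median of the 37 members with up to 450 bases stood at −0.32, −0.38 and −0.10 to the 0 h mean at 24 h, and that of the 21 members over 600 bases at 0.01, −0.06 and 0.21. Library 1 of 6 h had −0.47 and −0.12. With the share of unique windows rho was −0.00 at 24 h and with GC content 0.22. After a trend on coding length fitted on other genes was removed, 5 members were higher and 16 lower at 24 h. The share of all genes called in that fit is not given here, so these counts do not compare members with other genes. In the mice labelled TAL1 rho with length was 0.17.

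**Figure D5:**
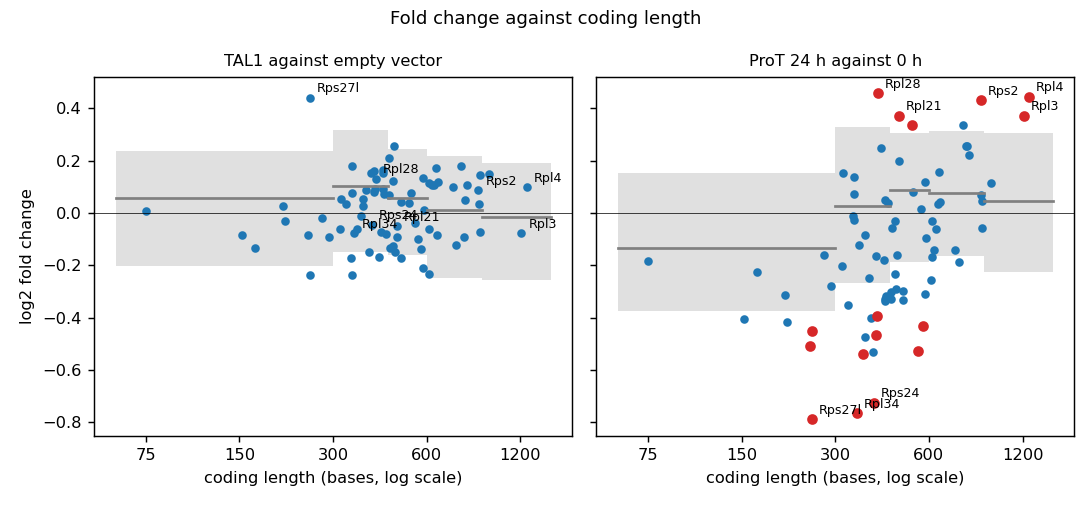
Log2 fold change of each member by coding length in bases (log axis), for mice labelled TAL1 and for ProT cells at 24 h; red points passed the edgeR threshold, and grey boxes and bars are the quartiles and median of other genes in each length range. At 24 h members up to 300 bases have a median of −0.36 and the 18 from 600 to 900 bases one of 0.04.

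Of 37 translation factors tested in ProT cells at 24 h, 19 were higher and 1 lower in edgeR, beside 9.43 and 9.3% of all genes, with a median log2 fold change of 0.36 against −0.01 over all genes. Eef2, which moves the ribosome along the mRNA, was at 884, 955 and 1100 CPM at 0 h and 1493, 1444 and 1549 at 24 h (log2 fold change 0.61), without overlap. Eef1d (0.64) and Eef1g (0.61), subunits of the factor that reloads eEF1A, were also called. The number of factors called was 9 without library 2 of 0 h, 10 without library 1 of 24 h, 11 without library 1 of 0 h or library 3 of 24 h and 12 without library 2 of 24 h, all of them higher. With library sizes alone it was 28, all higher (median 0.55, with 0.17 over all genes), beside 18.8% of all genes higher and 4.57% lower. These alternatives for lists were added after seeing the data, and the share of all genes called is given only for library sizes alone. Of 18 other genes with TOP mRNAs, several of them on the list above, 9 were higher and 0 lower (median 0.29), and 4 without library 2 of 0 h. Of 19 genes of mTORC1, S6 kinase and LARP1, 5 were higher and 0 lower (median 0.10): among them Eif4ebp1, the inhibitor of cap binding (0.85), the mTOR inhibitor Deptor (0.80) and Larp1 (0.54). Without library 2 of 0 h 3 were called.

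Genes that build ribosomes gave 5 higher and 1 lower of 38 (median 0.16), with the assembly factors Bysl at 0.66 and Rrs1 at 0.52, and nucleolin (Ncl) at 0.48. The same 9.43 and 9.3% of all genes apply. Called were 1 without library 2 of 0 h, 2 without library 1 of 24 h, 3 without library 1 of 0 h, and 13, all higher, with library sizes alone. Of 77 genes of the mitochondrial ribosome 7 were higher and 3 lower (median 0.10), at or below the share of all genes in both directions. There 4 were called without library 2 of 0 h, 6 without library 1 or 2 of 24 h, and 18, all higher, with library sizes alone. Of 10 genes of the checkpoint that links ribosomal proteins to p53, 0 were higher and 1 lower, Mdm4 (−0.39), which was not called with library sizes alone, nor without library 1 or 2 of 0 h or any 1 library of 24 h. The 5 tested genes of the separate ribosomal list gave 0 and 0, with 2 higher under library sizes alone and 1 lower without library 1 of 6 h. At 12 h the translation factors gave 10 higher and 0 lower, and at 18 h 6 and 0, beside 6.33 and 4.89% of all genes higher. At 6 h, and in the AKT(E17K) table and the interaction, edgeR called 0 genes of any list, with 10 of 190 list genes under an unadjusted p of 0.05 at 6 h (734 of 13610 over all genes), 14 of 188 in the AKT(E17K) table (709 of 9782) and 27 of 188 for the interaction (1189 of 10947). In mice labelled TAL1 it called 3 of 187 list genes, all higher, beside 2.16% of all genes higher: Nap1l1 (0.49), the pseudouridine synthase Dkc1 (0.61) and Mrpl12 of the mitochondrial ribosome (0.74).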

How the data were processed

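RNA was measured in 27 libraries. Read counts per gene were deposited by the authors as 3 tables. Per the submitters' processing notes they used FastQC, HISAT2, SAMtools and HTSeq with mm10 and GRCm38; versions, read length and strand setting are not given in the sources used here. The members and gene lists were chosen with earlier results of these data known. HTSeq summary rows were left out, where tables hold them: reads in no gene were 17.3 to 33% and reads not uniquely aligned 10.3 to 15.4%. Counts were fitted per table with edgeR 4.0.16 in R 4.3.3 (quasi-likelihood test, TMM factors, filterByExpr, Benjamini-Hochberg over all genes, threshold 0.05); the interaction used both thymus tables. DESeq2 1.42.0, other scalings, no filter, each library left out, a replicate block and, added after seeing the data, pseudogene rows, totals without rRNA rows and a length trend were alternatives. Same-numbered ProT samples of 6 and 12 h had correlations of deviations of 0.323, 0.294 and 0.116, so these numbers were taken as pairing that comparison; no other pair of times had all 3 over 0.1. Scripts were tested on simulated data. Genes named were those with a listed role, up to 5 called each way per comparison (or the 3 of smallest p), the 5 highest and lowest per kb, and up to 3 called per list. Results of some genes are not reported here. Gene models were GENCODE M21; windows were compared with its transcripts, since no genome sequence was used here.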

Additional observations from a re-analysis of the deposited data

Results flagged for a closer look

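Rows named as pseudogenes of these genes held counts in every library. They were not counted as members, but stayed in the totals. Where they passed the filter, they were fitted among the other genes. Only the alternative with pseudogene rows added them to members. Per 100 counts of members the highest library had 0.2755 in the AKT(E17K) table, which lists 6 such rows, 6.057 in the empty-vector and TAL1 table and 40.04 in the ProT table, which list 259 rows each. The lowest libraries had 0.198, 5.82 and 37.5. In ProT cells Rps12-ps3 (86334 counts) and Rps12-ps9 (86029 counts) each held more than Rps12 itself (17595), and Rpl39-ps (82476) more than Rpl39 (75327). Reads of a gene and of its near-identical copies cannot be told apart here.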

How the results depend on the processing

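The ProT counts of called members depended on the scaling, the filter and the libraries used. The share of all genes called under the same setting is given only for 24 h with library sizes alone. The other counts, here and above, therefore do not show whether members were called more often than other genes. With library sizes alone they were 18 at 12 h, 7 at 18 h, 9 for 12 h against 6 h and 14 at any time, and the members' medians were 0.18, 0.11 and 0.031 at 12, 18 and 24 h while those of all genes were 0.18, 0.13 and 0.17. With no filter on low counts they were 10 at 12 h, 4 at 18 h and 15 at any time, and 1 for mice labelled TAL1. DESeq2 gave 5 at 18 h, 8 for 12 h against 6 h, 1 for TAL1 mice, 2 in the AKT(E17K) table and 1 for the interaction. Fits of only the times compared gave 20 at 18 h, 39 at 24 h (10 higher, 29 lower) and 0 for 12 h against 6 h; at 24 h they called 9 genes of the mTORC1, 12 of the assembly and 16 of the mitochondrial ribosome list. For that last comparison the length trend and the pseudogene rows gave 2 each. Leaving out 1 library, counts at 12 h ran from 0 to 10, those at 18 h from 0 to 8, those at 24 h from 0 to 27, those of 12 h against 6 h from 0 to 13, those at any time from 1 to 24 and those of the interaction from 0 to 3, whose median ran from −0.45 to −0.14. Same-numbered ProT samples deviated together between 6 and 12 h. There the replicate block, 1 factor over the libraries of all times, gave 5 called members and the same call for each member named. For the other pairs of times the numbers were not taken as pairing, since not all 3 correlations were over 0.1 (range −0.356 to 0.445). Those of 6 and 18 h were 0.445, 0.177 and 0.073. The block gave 0, 7, 1 and 21 called members at 6, 12, 18 and 24 h against 0 h and 8 at any time.

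With mitochondrially encoded genes in the total, the members' share was 4.66% in empty-vector and 4.65% in TAL1 mice, and 8.51, 8.32, 9.29, 8.93 and 8.60% at the 5 ProT times. Over symbols found once in all tables it was 5.62% in both groups of mice and 15.4, 14.2, 14.3, 14.2 and 13.3% at the 5 times. With pseudogene rows it was 5.56% in both groups and 13.8, 13.5, 14.5, 13.996 and 13.2%. Without rRNA rows it was 12.1, 11.3, 11.4, 11.4 and 10.8% at those times.

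Of 4373 values of named members under alternatives, 174 in 78 results had the other sign than the value reported. None of these was called in either fit, so their direction is not established, and the cause was not tested. They are given here as log2 fold changes, for left-out libraries as the lowest and highest, so each range also ends in a value of the reported sign. Such an end was called for Rps24 from 6 to 12 h (−0.46 without library 1 of 6 h, edgeR adjusted p = 0.0343). AKT(E17K) with TAL1 against AKT(E17K), library sizes alone: Rps24 0.038, Rps14 0.041. AKT(E17K) with TAL1 against AKT(E17K), 1 library left out: Rpl10 −0.29 to 0.026, Rpl13a −0.35 to 0.026, Rpl22 −0.28 to 0.047, Rpl4 −0.31 to 0.048, Rpl5 −0.35 to 0.10, Rplp2 −0.37 to 0.040, Rps14 −0.16 to 0.14, Rps19 −0.41 to 0.37, Rps24 −0.19 to 0.093, Rps27a −0.17 to 0.36, Rps6 −0.87 to 0.084. ProT 12 h against 0 h, the length trend: Rps27a −0.037, Rpl13a −0.048. ProT 12 h against 0 h, library sizes alone: Rplp1 0.14, Rpl22 0.028, Rps19 0.10, Rpl35a 0.10, Rps10 0.024, Rpl39 0.097, Rps27 0.013. ProT 12 h against 0 h, pseudogene rows: Rps27a −0.060. ProT 12 h against 0 h, the replicate block: Rpl13a −0.0026. ProT 12 h against 0 h, 1 library left out: Rpl13a −0.20 to 0.22, Rpl35a −0.29 to 0.12, Rpl39 −0.19 to 0.069, Rplp1 −0.11 to 0.014, Rps19 −0.26 to 0.035, Rps27a −0.056 to 0.15, Rps6 −0.019 to 0.27, Rps7 −0.042 to 0.28. From 6 to 12 h in ProT cells, the length trend: Rplp1 −0.098, Rplp2 −0.041, Rps19 −0.085, Rps26 −0.015, Rpl39 −0.11, Rps27 −0.092. From 6 to 12 h in ProT cells, library sizes alone: Rpl22 0.10, Rps10 0.080, Rps27l 0.077. From 6 to 12 h in ProT cells, no filter: Rpl22 0.0079. From 6 to 12 h in ProT cells, pseudogene rows: Rpl39 −0.021. From 6 to 12 h in ProT cells, 1 library left out: Rpl13a −0.043 to 0.39, Rpl22 −0.15 to 0.086, Rpl35a −0.014 to 0.40, Rpl39 −0.17 to 0.20, Rplp1 −0.071 to 0.086, Rps10 −0.18 to 0.063, Rps19 −0.17 to 0.17, Rps24 −0.46 to 0.024, Rps27 −0.072 to 0.20, Rps27a −0.078 to 0.25, Rps27l −0.39 to 0.19. ProT 18 h against 0 h, the length trend: Rps6 −0.024. ProT 18 h against 0 h, library sizes alone: Rplp1 0.15, Rps19 0.052, Rps7 0.14, Rps10 0.021, Rps27a 0.12, Rpl39 0.030, Rpl13a 0.13. ProT 18 h against 0 h, no filter: Rplp1 0.019, Rps7 0.017, Rpl13a 0.0015. ProT 18 h against 0 h, 1 library left out: Rpl13a −0.10 to 0.089, Rplp1 −0.038 to 0.040, Rps27a −0.082 to 0.046, Rps7 −0.041 to 0.021. ProT 24 h against 0 h, the length trend: Rpl5 −0.029, Rpl10 −0.043, Rpsa −0.0056. ProT 24 h against 0 h, library sizes alone: Rplp1 0.18, Rps6 0.0022. ProT 24 h against 0 h, no filter: Rplp1 0.014. ProT 24 h against 0 h, pseudogene rows: Rpl10 −0.0064. ProT 24 h against 0 h, 1 library left out: Rpl10 −0.022 to 0.080, Rpl5 −0.060 to 0.13, Rplp1 −0.098 to 0.039, Rpsa −0.00077 to 0.14. ProT 6 h against 0 h, the length trend: Rplp1 0.0028, Rplp2 0.063, Rpl3 −0.022, Rpl39 0.014. ProT 6 h against 0 h, library sizes alone: Rplp1 0.013, Rplp2 0.078, Rpl11 0.052, Rpsa 0.012. ProT 6 h against 0 h, pseudogene rows: Rpl3 −0.0081. ProT 6 h against 0 h, 1 library left out: Rpl11 −0.086 to 0.017, Rpl13a −0.29 to 0.028, Rpl3 −0.088 to 0.12, Rpl39 −0.25 to 0.074, Rplp1 −0.12 to 0.025, Rplp2 −0.074 to 0.021, Rps10 −0.23 to 0.013, Rps19 −0.26 to 0.078, Rps24 −0.36 to 0.12, Rps27a −0.22 to 0.11, Rps4x −0.053 to 0.083. TAL1 against empty vector, library sizes alone: Rpl35a −0.0039, Rpsa −0.0052. TAL1 against empty vector, 1 library left out: Rpl3 −0.21 to 0.012, Rpl35a −0.0097 to 0.077, Rps10 −0.050 to 0.14, Rps24 −0.17 to 0.023, Rps4x −0.19 to 0.030, Rps6 −0.37 to 0.070, Rpsa −0.028 to 0.12. TAL1 effect with against without AKT(E17K), library sizes alone: Rpl5 0.0039. TAL1 effect with against without AKT(E17K), 1 library left out: Rpl13a −0.26 to 0.11, Rpl3l −2.30 to 1.52, Rpl5 −0.25 to 0.20, Rplp1 −0.40 to 0.024, Rps19 −0.54 to 0.22, Rps24 −0.12 to 0.17, Rps27 −0.35 to 0.017, Rps27a −0.020 to 0.51, Rps4x −0.30 to 0.043, Rps6 −0.72 to 0.23, Rps7 −0.27 to 0.042. Depth limits members under the count filter, and the AKT(E17K) table has the widest intervals.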
